A study of Mus musculus with 6 samples.

Results

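The serine/arginine-rich (SR) splicing factors are RNA-binding proteins that join an RNA recognition motif to a tail rich in arginine-serine dipeptides, and the mRNAs of 10 of them, *Srsf1*, *Srsf2*, *Srsf3*, *Srsf4*, *Srsf5*, *Srsf6*, *Srsf7*, *Srsf9*, *Srsf10* and *Srsf11*, were followed here. The members were taken by gene symbol from the table of read counts, and all 10 were found among 53060 genes or merged loci. The libraries were made from neural progenitor cells (NPCs), 3 from *Armc5*(-/-) (KO) and 3 from wild-type (WT) cultures of the labelled strain 129 sv X CD1, whereas the methods of the study give a CD1 x C57BL/6 F1 background for its mice. The cells of both genotypes came from the ganglionic eminences of e13.5 fetuses, and both were kept as floating spheres in medium with 20 ng/ml epidermal growth factor and used at passage 2. ARMC5 is a substrate adaptor of a cullin 3 ubiquitin ligase, and the comparison asks which mRNAs differ when this protein is missing. Neurospheres are mixed cultures of stem cells and progenitors, and the labels do not say whether the 3 libraries of a genotype came from different fetuses, so the p-values measure the spread between these libraries.

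SR proteins bind exonic enhancers and recruit the U1 particle and the U2 auxiliary factor to the neighbouring splice sites, so that most exons depend on them, constitutive ones included. Their tails are phosphorylated by SRPK kinases in the cytoplasm, which lets transportin 3 carry them into the nucleus, and by CLK kinases in the nucleus, which release them from nuclear speckles. Most SR genes hold an ultraconserved poison exon, whose inclusion sends the mRNA to nonsense-mediated decay, and SR proteins hold their own level and that of each other in check in this way.

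The targeted gene was far lower in each KO library. *Armc5* had 84, 119 and 43 counts in KO NPC 1, 2 and 3 and 1966, 2114 and 1797 counts in WT NPC 1, 2 and 3. The libraries held between 52995791 (KO NPC 3) and 85170379 (KO NPC 1) counts at loci that name a gene. KO NPC 3 stood apart from the other 5 libraries. Loci without a gene name took 4.89% of its counts and between 1.31% and 1.72% elsewhere, and its TMM factor, which corrects a library size for differences in composition, was 1.11 against 0.957 to 1.01. The 10 progenitor markers summed to 3173 CPM (counts per 1000000 counts of the scaled library) in KO NPC 3, below the 4080 to 4796 CPM of the others. Single progenitor markers went both ways, since KO NPC 3 was the lowest library for 5 of the 10, such as *Nes* (nestin) at 75.8 CPM against 356 to 483 CPM, and the highest for 3, such as *Sox2* at 811 CPM against 535 to 626 CPM, at a locus merged with *Sox2ot*. The 7 astrocyte markers summed to 2718 CPM there against 840 to 1357 CPM elsewhere, the 10 oligodendrocyte lineage markers to 4237 against 2624 to 3764 CPM, and the 8 endothelial and mural markers to 77.7 against 14.0 to 18.8 CPM. Over all genes tested, KO NPC 3 was the lowest library for 36.7% and the highest for 34.9%, and none of the marker counts was tested against these shares. KO NPC 3 was the highest library for 5 of the astrocyte markers and the lowest for 0. Of 9 oligodendrocyte lineage markers tested, it was the highest for 5 and the lowest for 3. Of 6 endothelial and mural markers tested, it was the highest for 3 and the lowest for 1. The 10 neuronal markers summed to 1384 CPM in KO NPC 3, inside the range of 806 to 1479 CPM of the others, but KO NPC 3 was the highest library for 5 of them and the lowest for 0, with a median ratio to the mean of the others of 2.41. The 8 microglial and the 7 fibroblast markers stayed at or below 12.4 CPM in sum in every library. Because KO NPC 3 is 1 of 3 KO libraries, the fold changes and list medians whose direction rests on it are also given without it.

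The promoters of the SR genes are rich in CG dinucleotides. The windows below are the 250 bases before the RefSeq start of a gene on GRCm38.p6, written 5′ to 3′ on the strand of the gene. They are shown for *Srsf9* and *Srsf1*, whose mRNAs stood furthest below the other libraries in KO NPC 3, and for *Srsf5* and *Srsf6*, whose mRNAs stood the least below. Capitals mark a GC box (GGGCGG) or an ETS core (CCGGAAG) on either strand.
Srsf9, chr5:115326927-115327176, plus strand: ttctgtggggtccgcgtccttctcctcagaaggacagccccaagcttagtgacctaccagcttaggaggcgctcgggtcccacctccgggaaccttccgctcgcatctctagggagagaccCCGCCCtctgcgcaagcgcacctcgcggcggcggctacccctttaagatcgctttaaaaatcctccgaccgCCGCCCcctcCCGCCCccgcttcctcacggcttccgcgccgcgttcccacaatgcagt
Srsf1, chr11:88047123-88047372, plus strand: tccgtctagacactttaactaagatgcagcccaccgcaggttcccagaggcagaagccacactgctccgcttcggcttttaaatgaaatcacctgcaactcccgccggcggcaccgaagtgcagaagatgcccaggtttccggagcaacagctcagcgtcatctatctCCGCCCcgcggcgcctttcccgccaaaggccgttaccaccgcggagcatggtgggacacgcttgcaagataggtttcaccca
Srsf5, chr12:80945249-80945498, plus strand: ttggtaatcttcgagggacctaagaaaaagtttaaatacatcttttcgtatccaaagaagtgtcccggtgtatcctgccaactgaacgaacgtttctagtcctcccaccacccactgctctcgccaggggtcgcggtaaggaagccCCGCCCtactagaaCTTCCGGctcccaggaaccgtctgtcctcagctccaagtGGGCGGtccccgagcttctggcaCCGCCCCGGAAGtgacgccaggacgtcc
Srsf6, chr2:162931258-162931507, plus strand: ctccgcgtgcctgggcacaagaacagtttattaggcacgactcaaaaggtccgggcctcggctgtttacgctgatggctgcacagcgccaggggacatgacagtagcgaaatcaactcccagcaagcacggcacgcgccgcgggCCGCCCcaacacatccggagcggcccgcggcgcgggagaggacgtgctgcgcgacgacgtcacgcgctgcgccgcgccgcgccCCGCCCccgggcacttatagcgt

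All 10 members had a window in the RefSeq table, and the first listed start was used where there were several. A GC box, the site of SP1-type factors, lay in 9 of the 10 windows and in 32.7% of the 32851 windows of all genes, and *Srsf3* was the member without one. The ETS core was found in 4 members, *Srsf4*, *Srsf5*, *Srsf7* and *Srsf11*, against 6.91% of all windows, and in *Srsf5* the last ETS core overlaps a GC box. The windows of *Srsf2* and *Srsf3* held both TATAAA, found in 12.4% of all windows, and CCAAT, found in 33.8%, and *Srsf10* held CCAAT alone. None of the 10 windows held the NRF1 core, the cAMP response element TGACGTCA, the E-box CACGTG or the YY1 core AAGATGGC, which lay in 0.782%, 1.55%, 6.02% and 1.56% of all windows. Both strands were searched for each motif, and a match is a run of letters and not a site shown to be bound. The members' windows were rich in G and C, at 56.8% to 77.2% against a median of 52.4% over all windows, and held 17 to 37 CG dinucleotides against a median of 6. *Srsf1* and *Srsf5* had the lowest GC content of the 10, 58.8% and 56.8%. A relation of these windows to the level in KO NPC 3 was not tested.

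All 10 SR genes were well covered by reads in NPCs. The member with the fewest reads, *Srsf9*, still had between 2115 and 6673 counts in a library, and *Srsf6* had between 14772 and 23082. Levels were compared between genes per length, as CPM per kb of the exon length that the table gives for a locus. On that scale *Srsf6* stood highest in WT NPCs at 56.3 ± 4.99 (SD, n = 3), and its range did not overlap that of *Srsf2* at 37.6 ± 1.65. *Srsf2* in turn lay above *Srsf5* at 30.2 ± 2.33 without overlap. Below them, *Srsf5*, *Srsf9* (29.3 ± 0.973), *Srsf1* (27.0 ± 5.61), *Srsf4* (25.7 ± 0.0432), *Srsf7* (25.5 ± 1.41) and *Srsf3* (24.2 ± 0.304) formed a run in which each gene overlapped the next. *Srsf11* (15.7 ± 0.323) and *Srsf10* (15.4 ± 0.852) lay lower than *Srsf3* without overlap and were not separated from each other. The exon lengths ran from 2444 bases for *Srsf9* to 9545 bases for *Srsf10*, and they belong to a locus with all its transcripts and not to 1 mRNA, so the order depends on them. In KO NPCs the means ran from 53.8 CPM per kb for *Srsf6* to 13.2 for *Srsf10*.

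**Figure D1:**
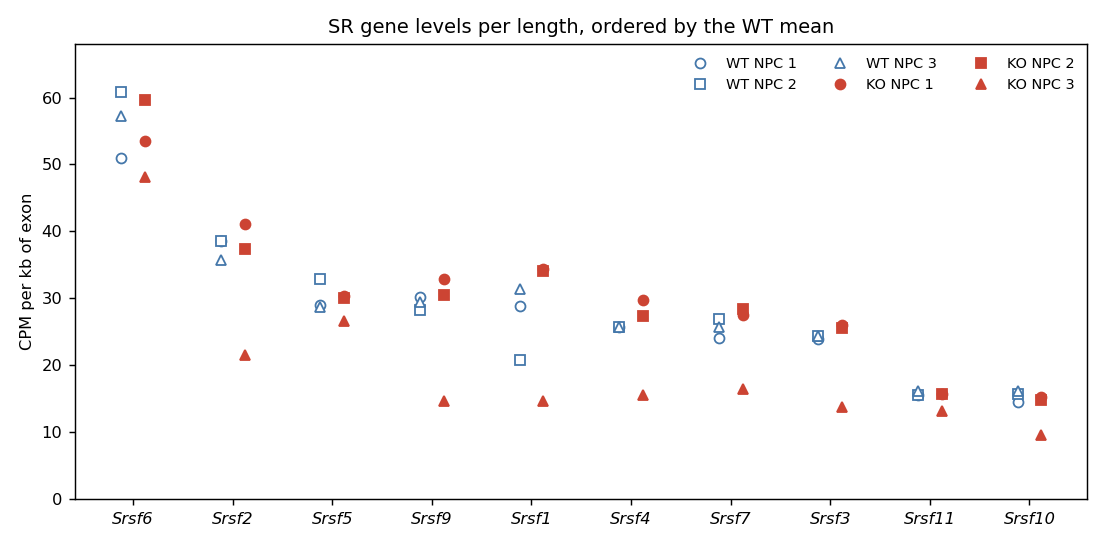
Level of each SR gene per length (vertical axis, CPM per kb of exon) in each of the 6 libraries, with genes ordered by their WT mean; open blue symbols are WT, filled red symbols KO, and the shape gives the replicate number. *Srsf6* lies at the top with a WT mean of 56.3 and *Srsf10* at the bottom with 15.4, and the red triangle of KO NPC 3 lies at the lower end of each gene.

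*Srsf1* encodes the founding member of the family, which acts in constitutive and alternative splicing and promotes nonsense-mediated decay. Its level was 265, 263 and 113 CPM in KO NPC 1, 2 and 3 and 223, 159.7 and 243 CPM in WT NPC 1, 2 and 3. It was the member with the widest spread among WT libraries, and the WT range lay between KO NPC 3 and the other KO libraries. The means were 214 ± 87.1 CPM in KO and 208 ± 43.3 CPM in WT NPCs (SD, n = 3 each), with a log2 fold change of 0.04 (SE 0.36, adjusted p = 0.994, edgeR's quasi-likelihood test with Benjamini-Hochberg adjustment over all genes tested). *Srsf9* encodes the closest relative of SRSF1 in its RNA-binding part. It was measured at 80.4, 74.4 and 35.9 CPM in KO and at 73.6, 68.9 and 72.0 CPM in WT NPCs. KO NPC 1 and 2 lay above every WT library and KO NPC 3 below all of them, and the log2 fold change was -0.17 (SE 0.31, adjusted p = 0.983, the same test).

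*Srsf2* encodes a factor that stays in the nucleus and also helps to release paused RNA polymerase II. Its level was 122, 110.4 and 63.5 CPM in KO and 114, 114 and 106 CPM in WT NPCs, so that KO NPC 2 lay inside the WT range, KO NPC 1 above and KO NPC 3 below it. The log2 fold change was -0.18 (SE 0.26). Because *Mettl23* and *Mfsd11* overlap *Srsf2* on the opposite strand and no source used here states whether reads were counted by strand, reads of these genes may be included. Annotated models also overlap *Srsf1* (*Gm11508*), *Srsf4* (*A930004J17Rik* and *Gm12992*) and *Srsf11* (*Gm43362*), and their reads may be included there.

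*Srsf3* and *Srsf7* encode small shuttling factors that bring the export receptor NXF1 to the mRNA. *Srsf3* was at 208, 205 and 110.1 CPM in KO and at 191, 194 and 195 CPM in WT NPCs. *Srsf7* was at 132, 137 and 79.7 CPM in KO and at 116, 129.6 and 124 CPM in WT NPCs. In both genes the first and second KO libraries exceeded all WT libraries and the third fell short of all of them, and the log2 fold changes were -0.15 (SE 0.26) and -0.08 (SE 0.23).

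*Srsf4*, *Srsf5* and *Srsf6* encode a trio of related factors with paired RNA recognition motifs. *Srsf4* was at 127, 117 and 66.4 CPM in KO and at 109.8, 110.2 and 110.1 CPM in WT NPCs, the narrowest WT range of the family, and again the KO libraries lay on both sides of it. *Srsf5* was at 134, 133 and 118 CPM in KO and at 128, 145 and 127 CPM in WT NPCs. *Srsf6* was at 278, 310.3 and 250.4 CPM in KO and at 265, 316 and 297 CPM in WT NPCs. For *Srsf5* and *Srsf6* the KO and WT ranges overlapped, and KO NPC 3 lay 11.9% and 14.6% below the mean of the other 5 libraries, against 42.2% for *Srsf4*. The log2 fold changes were -0.09 (SE 0.26), -0.06 (SE 0.14) and -0.07 (SE 0.16) for *Srsf4*, *Srsf5* and *Srsf6*.

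*Srsf10* encodes a factor that represses splicing once it is dephosphorylated, as after heat shock. Its level was 145, 141 and 91.0 CPM in KO and 138, 150.2 and 153 CPM in WT NPCs, and its log2 fold change of -0.23 (SE 0.21, unadjusted p = 0.328) was the one furthest from 0 among the 10. *Srsf11* encodes a factor that contacts the U2 auxiliary factor and serves in the inclusion of neuronal microexons. It was at 139.6, 139.6 and 117 CPM in KO and at 139, 139 and 144 CPM in WT NPCs, with a log2 fold change of -0.09 (SE 0.14). Apart from KO NPC 3, the 5 libraries of *Srsf11* lay within 139 to 144 CPM, so that this mRNA varied little between cultures.

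**Figure D2:**
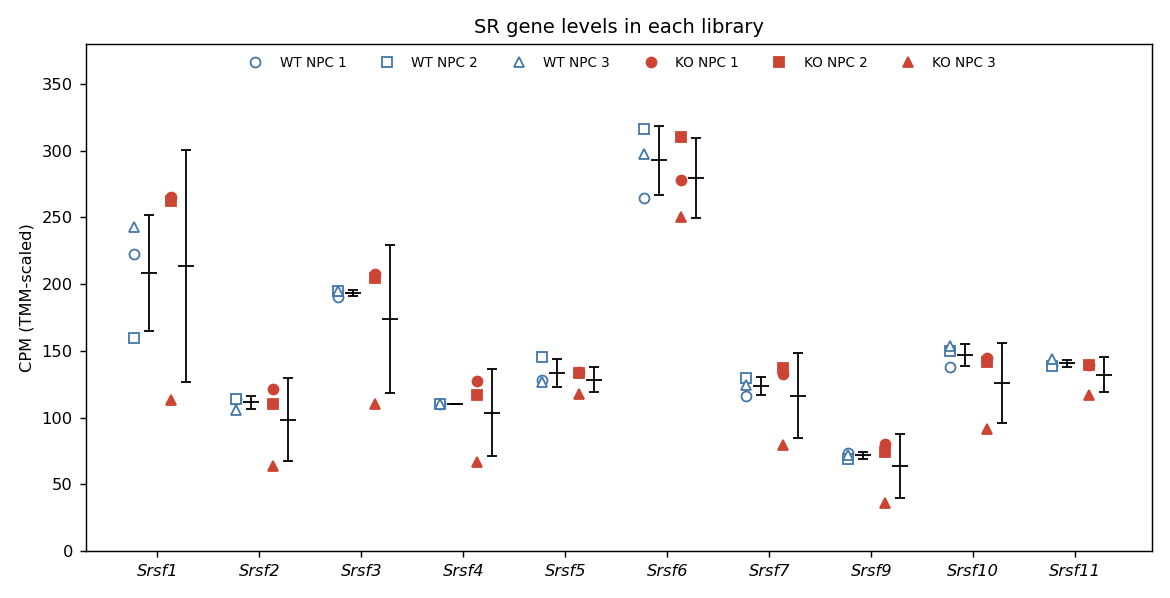
Level of each SR gene (vertical axis, CPM on TMM-scaled library sizes) in each library; open blue symbols are WT, filled red symbols KO, the shape gives the replicate number, and the black bar with whiskers is the mean ± SD of 3 libraries. KO NPC 3 (red triangle) is the lowest library of all 10 genes, from 35.9 CPM for *Srsf9* to 250.4 CPM for *Srsf6*.

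None of the 10 SR genes passed an adjusted p of 0.05 in KO against WT NPCs. The same test called 0 of the 19073 genes tested (0%), and at an unadjusted p under 0.05 it called 0 of the 10 members and 308 of all genes (1.61%). edgeR's likelihood ratio test also called 0 of the members, beside 17 of all genes (0.0891%), and DESeq2 0 of the members beside 35 (0.184%). The adjusted p was 0.994 for *Srsf1* and 0.983 for each of the other members. The median log2 fold change of the members was -0.09, against -0.01 for all genes tested, with 9 members below 0 and *Srsf1* above it, where 51.6% of all genes lay below 0. That fit held genotype alone. A block for the replicate number put all 10 members below 0, with a median of -0.13 beside -0.03 for all genes, and 0 members at an unadjusted p under 0.05. Scaling by the *Rn7sk* count put all 10 members below 0, with a median of -0.34 beside -0.26 for all genes, and scaling by total counts alone put 8 below, with a median of -0.05 beside 0.05. The *Rn7sk* level itself was 11674, 15618 and 13913 CPM in KO NPC 1, 2 and 3. It was 12895, 16113 and 8062 CPM in WT NPC 1, 2 and 3, so WT NPC 3 was the lowest library. No member had all KO libraries above all WT libraries, which 2.74% of the genes had, or all KO libraries below, which 3.28% had. The 95% intervals show what 3 libraries of each genotype could resolve. They ran from -0.84 to 0.91 for *Srsf1* and from -0.92 to 0.58 for *Srsf9*, but from -0.43 to 0.26 for *Srsf11* and from -0.40 to 0.29 for *Srsf5*.

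**Figure D3:**
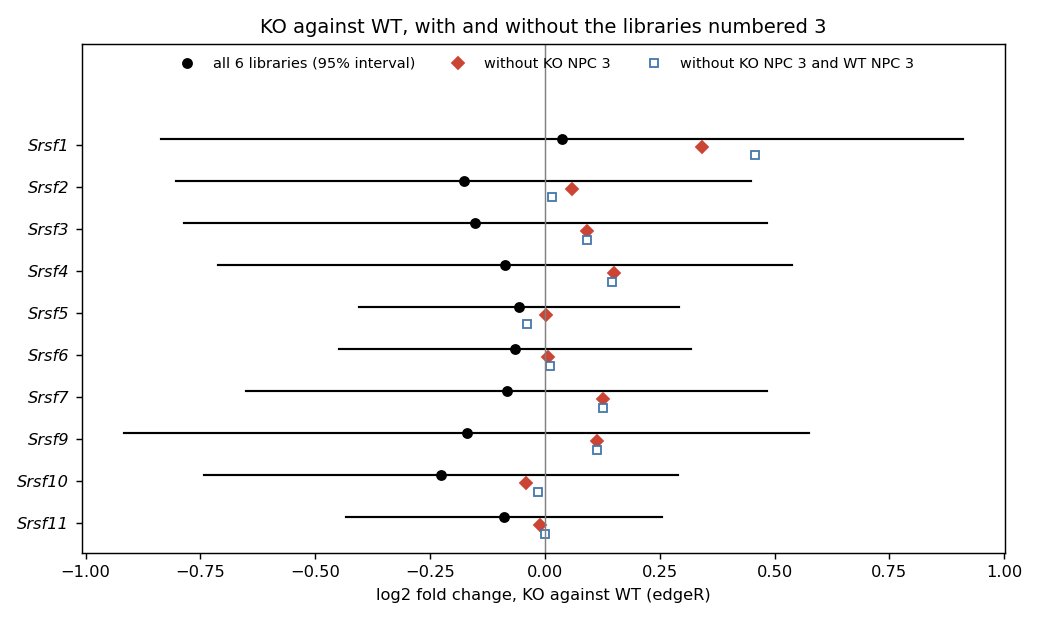
Log2 fold change of each SR gene, KO against WT (horizontal axis), with all 6 libraries (black circle, line for the 95% interval), without KO NPC 3 (red diamond) and without KO NPC 3 and WT NPC 3 (open square). Every interval spans 0; leaving out KO NPC 3 moves *Srsf1* from 0.04 to 0.34 and *Srsf9* from -0.17 to 0.11.

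KO NPC 3 was the library with the lowest level for 10 of the 10 members, whereas it was the lowest for 36.7% of all genes tested and the highest for 34.9%. With library sizes from total counts alone it was the lowest for 8 members, *Srsf5* and *Srsf6* being the exceptions, and for 29.7% of all genes. The level in KO NPC 3 was 50.9% below the mean of the other 5 libraries for *Srsf1*, 51.5% for *Srsf9*, 44.5% for *Srsf3*, 43.9% for *Srsf2*, 42.2% for *Srsf4*, 37.8% for *Srsf7*, 37.4% for *Srsf10*, 16.4% for *Srsf11*, 14.6% for *Srsf6* and 11.9% for *Srsf5*. Thus 7 genes were 37.4% to 51.5% lower in that library and 3 genes, *Srsf5*, *Srsf6* and *Srsf11*, 11.9% to 16.4%, a grouping made after the values were seen. This is a description of 1 library, with no test. The higher sums of glial and mural markers, the higher neuronal ratios and the mixed progenitor markers of KO NPC 3 moved with it, and their part in the result was not tested. In bulk RNA, fewer cells of a type and less RNA per cell cannot be told apart.

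Without KO NPC 3 the direction of most members turned. The median log2 fold change of the 10 was then 0.07, with 8 above 0 and 2 below, while the median of all genes stayed at -0.01. *Srsf1* had a log2 fold change of 0.34 (SE 0.19), *Srsf4* of 0.15 (SE 0.09), *Srsf7* of 0.13 (SE 0.09), *Srsf9* of 0.11 (SE 0.10), *Srsf3* of 0.09 (SE 0.08) and *Srsf2* of 0.06 (SE 0.10). *Srsf5* at 0.0015 (SE 0.10) and *Srsf6* at 0.0069 (SE 0.11) counted as above 0 but lay next to it. *Srsf10* was at -0.04 (SE 0.09) and *Srsf11* at -0.01 (SE 0.08). None of the 10 reached an unadjusted p under 0.05 in that fit, where 2.77% of all genes did. Without WT NPC 3 as well, *Srsf1* had a log2 fold change of 0.46 and the median of the members was 0.05.

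The labels number the KO and WT libraries from 1 to 3, and the difference within a number showed the same split. Within number 1 the KO library was higher than the WT library for 10 of the 10 members, since 0 were lower (49.5% of all genes were lower), with a median difference of 0.11 on the log2 CPM scale. Within number 2 it was lower for 4 members (49.3% of all genes), with a median of 0.04. Within number 3 it was lower for all 10 (51.3% of all genes), with a median of -0.73 against -0.03 for all genes. For *Srsf1* the differences were 0.25, 0.72 and -1.10 and for *Srsf9* 0.13, 0.11 and -1.01 within numbers 1, 2 and 3. For *Srsf5* they were 0.07, -0.13 and -0.11 and for *Srsf6* 0.07, -0.03 and -0.25. The value of 0.72 for *Srsf1* came from WT NPC 2, whose 159.7 CPM was the lowest of the WT libraries.

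**Figure D4:**
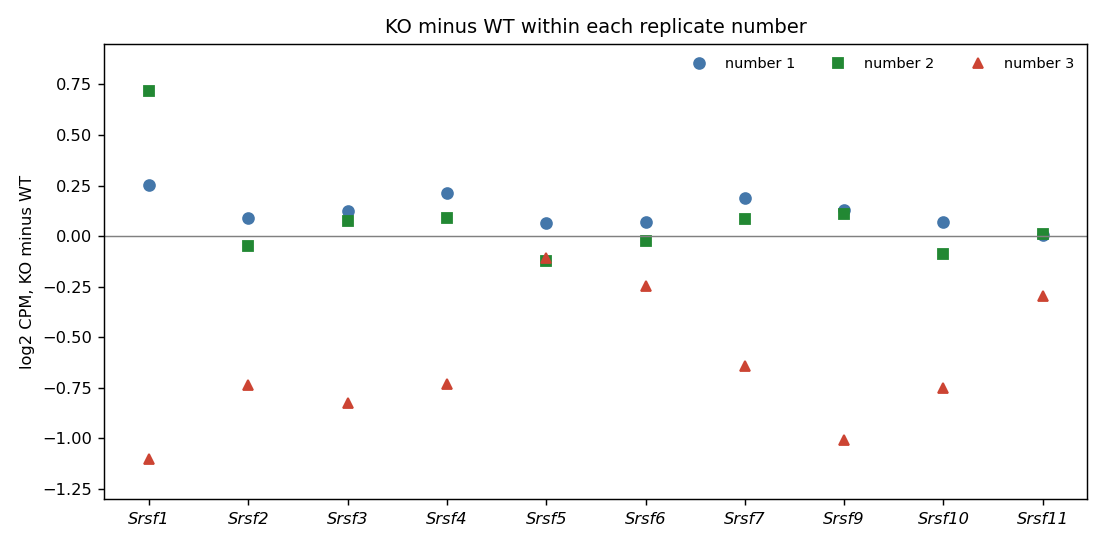
Difference in log2 CPM, KO minus WT, within each replicate number (vertical axis) for each SR gene; blue circles are number 1, green squares number 2 and red triangles number 3. The circles and squares lie between -0.13 (*Srsf5*) and 0.72 (*Srsf1*), both within number 2, and the triangles lie below 0 for all 10 genes, down to -1.10 for *Srsf1*.

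The members shared a low TMM-scaled level in KO NPC 3, but among the other libraries they did not all move together. In WT NPC 2, *Srsf1* had its lowest WT level, 159.7 CPM, while *Srsf5* and *Srsf6* were at their highest, 145 and 316 CPM. The 10 summed to 1631, 1631 and 1045 CPM in KO NPC 1, 2 and 3 and to 1497, 1527 and 1571 CPM in WT NPC 1, 2 and 3. The mean centred log2 level of the 10 was 0.17, 0.15 and -0.54 in KO and 0.05, 0.07 and 0.10 in WT NPCs, so that the shared profile was carried by KO NPC 3. The correlation of a single gene with this mean over the 6 libraries ran from 0.693 for *Srsf6* and 0.715 for *Srsf5* to 0.999 for *Srsf3*, a mean to which each gene itself contributes. Within the summed CPM, *Srsf6* held 24.0% in KO NPC 3 and between 17.0% and 20.7% elsewhere. *Srsf1* held 10.8% in KO NPC 3 and 10.5% in WT NPC 2, against 14.9% to 16.3% in the other 4 libraries. The share of *Srsf10* was 8.87%, 8.67% and 8.71% in KO and 9.21%, 9.83% and 9.75% in WT NPCs, the one value given here for an SR gene in which the genotypes did not overlap. This share was picked with its values in view and is given without a test.

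Isoforms could not be followed. GENCODE vM21 annotates 85 transcripts for the 10 genes, of which 29 are protein coding, 15 are targets of nonsense-mediated decay and 26 hold a retained intron, and 9 of the 10 genes, all but *Srsf10*, have at least 1 transcript of the decay class. The table lists 142 transcripts at these loci, 54 of them assembled from the reads, but gives 1 count per locus and library, so that productive and unproductive mRNAs are summed. *Srsf1* lies at chr11:88047373-88067476 on the plus strand and is merged with the model *Gm15892*, and *Srsf10* lies at chr4:135855747-135869908 on the plus strand (GRCm38).

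The kinases and carriers that act on SR proteins lay on both sides of 0. Of 10 genes for SR kinases and nuclear import 0 passed the test. KO NPC 3 was the lowest library for 2 (20%, against 36.7% of all genes). It was the highest for 4 (40%, against 34.9% of all genes), *Srpk2*, *Srpk3*, *Clk1* and *Clk4*. The median log2 fold change was 0.05, or -0.01 without KO NPC 3. *Srpk1*, the main cytoplasmic SR kinase, was at 90.0, 103 and 61.9 CPM in KO and at 83.1, 97.7 and 97.0 CPM in WT NPCs, with a log2 fold change of -0.12, or 0.06 without KO NPC 3. *Srpk2*, its relative with high expression in brain, was at 217, 153 and 314 CPM in KO and at 180.4, 189 and 178 CPM in WT NPCs, with a log2 fold change of 0.32 that dropped to 0.02 without KO NPC 3. The nuclear kinase gene *Clk1* was at 63.7, 63.8 and 103 CPM in KO and at 68.9, 79.4 and 68.7 CPM in WT NPCs. *Srpk3*, *Clk1* and *Clk4* were named after their values were seen, and the loci of *Srpk2* and *Clk4* are merged with neighbouring models.

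Most SR-related proteins carry an arginine-serine tail but are not among the classical splicing factors. The list of 27 SR-related genes was drawn more widely, with *Srsf12* of the SRSF series and *Sap18* among them. Of these 27 genes 0 passed the test, and the median log2 fold change was -0.02. KO NPC 3 was the lowest library for 13 (48.1%, against 36.7% of all genes) and the highest for 5 (18.5%, against 34.9%). *Luc7l3*, whose product binds the U1 particle, was the one gene of all the partner lists at an unadjusted p under 0.05 without a block for the replicate number. It was at 124, 130.1 and 162 CPM in KO and at 105, 87.8 and 98.0 CPM in WT NPCs, with no overlap between genotypes. The log2 fold change was 0.52 (SE 0.17, unadjusted p = 0.0213, adjusted p = 0.983, edgeR's quasi-likelihood test). Leaving out KO NPC 3 gave 0.39, and 0.949% of all genes were higher in KO at that unadjusted threshold. *Tra2b*, an enhancer-binding relative of the SR factors, was likewise lowest in KO NPC 3, with 214, 208 and 111 CPM in KO and 188, 198 and 207 CPM in WT NPCs. *Tra2a*, its paralog, had 212 CPM in KO NPC 3, inside the range of 192 to 229.8 CPM of the rest, and both were named after their values were seen.

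The hnRNP proteins oppose SR proteins at many exons, and most of their mRNAs were also lowest in KO NPC 3. Of 26 genes 0 passed the test. KO NPC 3 was the lowest library for 21 (80.8%, against 36.7% of all genes) and the highest for 2 (7.69%, against 34.9%). The median ratio of KO NPC 3 to the mean of the other 5 libraries was 0.620 for hnRNP genes, 0.600 for the SR genes and 0.975 for all genes tested. *Hnrnpa1*, a classical antagonist of SRSF1, was at 456, 419 and 231 CPM in KO and at 386, 436 and 417 CPM in WT NPCs. *Hnrnpa0* was at 368, 357 and 208 CPM in KO and at 300.4, 319 and 305 CPM in WT NPCs, and its log2 fold change went from 0.01 to 0.23 without KO NPC 3. The median log2 fold change of the list was -0.12, and 0.08 without that library.

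The factors of splice-site recognition, only some of which are recruited by SR proteins, gave similar counts. Of 20 genes for splice-site recognition 0 passed the test. KO NPC 3 was the lowest library for 16 (80%, against 36.7% of all genes) and the highest for 2 (10%, against 34.9%). The median log2 fold change was -0.15, or 0.04 without KO NPC 3. *Snrnp70*, the U1 protein that SR tails contact, was an exception, with 129, 121 and 166 CPM in KO and 130.2, 133 and 140.3 CPM in WT NPCs. *Snrpa*, another U1 protein, lies in a locus merged with *Rab4b* and *Mia*, which had a log2 fold change of -0.11, or 0.05 without KO NPC 3.

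Nonsense-mediated decay, which removes the poison-exon forms, and mRNA export gave no called gene either. Of 15 genes for decay and the exon junction complex 0 passed the test. KO NPC 3 was the lowest library for 10 (66.7%, against 36.7% of all genes) and the highest for 4 (26.7%, against 34.9%). The median log2 fold change of -0.03 turned to 0.08 without that library, with 12 genes above 0. The helicase gene *Upf1* was at 167, 167 and 111 CPM in KO and at 147, 148 and 162 CPM in WT NPCs, and *Upf2*, its partner, had a log2 fold change of 0.20, or 0.08 without KO NPC 3. Of 15 export genes 0 passed the test, with 10 lowest (66.7%) and 1 highest (6.67%) in KO NPC 3. The median of -0.13 turned to 0.12 without that library, with 11 genes above 0. *Nxf1*, the export receptor that SRSF3 and SRSF7 bind, was at 153, 156 and 117 CPM in KO and at 131, 139 and 157 CPM in WT NPCs, with a log2 fold change of -0.01, or 0.11 without KO NPC 3. *Nxt1*, its cofactor, was at 20.2, 19.5 and 5.85 CPM in KO and at 16.3, 19.2 and 18.8 CPM in WT NPCs, with a log2 fold change of -0.25, or 0.13 without KO NPC 3.

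Neural and tissue-specific splicing regulators were more often highest than lowest in KO NPC 3. Of 24 genes 0 passed the test. KO NPC 3 was the lowest library for 6 (25%, against 36.7% of all genes) and the highest for 12 (50%, against 34.9%). The median ratio of KO NPC 3 to the other libraries was 1.22. *Nova1*, which regulates neuronal exons, was at 272, 227 and 764 CPM in KO and at 295, 259 and 143 CPM in WT NPCs, with a log2 fold change of 0.86 (SE 0.53) and 0.10 without KO NPC 3. *Ptbp2*, which is produced as progenitors become neurons, was at 221, 218 and 293 CPM in KO and at 171, 201 and 182 CPM in WT NPCs, so that the genotypes did not overlap, with a log2 fold change of 0.40 (SE 0.18) and 0.25 without KO NPC 3. *Ptbp1*, the paralog found in progenitors, was at 357, 328 and 146 CPM in KO and at 257, 326 and 361 CPM in WT NPCs, and was named after its values were seen. The loci of these 3 genes are merged with other models. With the replicate number as a block, *Elavl3*, an RNA-binding protein of neurons, had an unadjusted p of 0.0142 and *Luc7l3* one of 0.0467 (adjusted p = 0.968 for both, edgeR's quasi-likelihood test), beside 2.05% of all genes at an unadjusted p under 0.05 and 0 of the SR genes. *Elavl3*, at a locus merged with *Zfp653* and named after its values were seen, was at 48.9, 80.7 and 166 CPM in KO and at 35.0, 48.4 and 83.2 CPM in WT NPCs, higher in KO within each number, with differences of 0.48, 0.74 and 0.99 on the log2 scale. Over the 7 partner lists the likelihood ratio test and DESeq2 also called 0 genes, so that no list held a gene that passed.

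**Figure D5:**
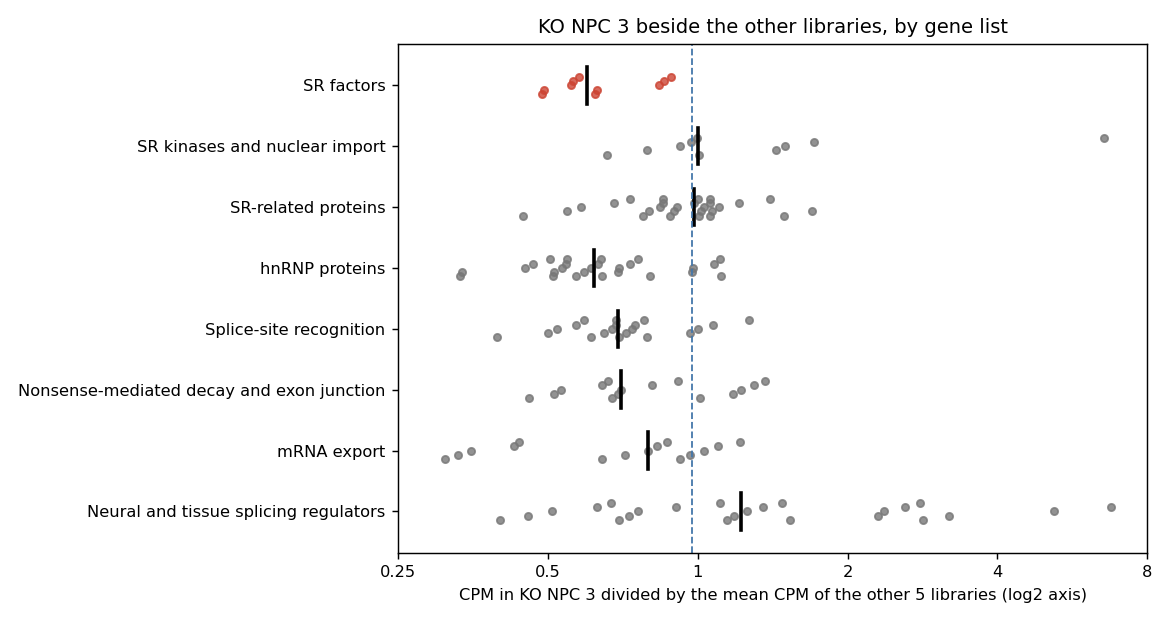
CPM in KO NPC 3 divided by the mean CPM of the other 5 libraries (horizontal log2 axis), 1 point per gene, for the SR genes (red) and the 7 partner lists (grey); black bars are list medians and the dashed line is the median of all genes tested, 0.975. SR genes (median 0.600), hnRNP genes (0.620) and splice-site genes (0.690) lie to the left, kinases and import at 1.00, and neural and tissue regulators to the right at 1.22.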

How the data were processed

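Total RNA was depleted of rRNA and sequenced as strand-specific paired-end libraries. Per the labels, the authors used GRCm38 with STAR, StringTie, Trimmomatic, Picard and edgeR, and versions, the read counter and its strand setting are not given in the sources used here. The authors deposited raw counts for 59699 assembled loci, the exon length of each locus, and log2 CPM values, plain and relative to the *Rn7sk* count, with group means. The deposited log2 values were not used. Reads of the 53103 named loci were added up by gene, and 6596 unnamed loci, with 1.31% to 4.89% of the counts of a library, were left out.

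R 4.3.3 with edgeR 4.0.16 was used. Genes were filtered with filterByExpr (minimum count 10, minimum total 15), scaled by TMM on the total at named loci and tested KO against WT with the quasi-likelihood test, adjusted by Benjamini-Hochberg over 19073 genes at a threshold of 0.05. Log2 CPM used a prior count of 2, except that the within-number differences of single named genes and the members' medians were taken without one. The all-gene medians beside them kept the prior count. The shared profile used a pseudocount of 0.5. Alternatives were scaling by total counts, RLE or the *Rn7sk* count, other filters, the likelihood ratio test, DESeq2 1.42.0, unsummed loci, a block for the replicate number, and leaving out libraries. The study describes pairs of biological replicates. The deviations of same-numbered libraries from their group means correlated at 0.413, 0.169 and 0.195, against at most 0.0579 for other pairs. Deviations cancel within a group, so these correlations are not independent of each other. The numbers were taken to pair the libraries in the block, whereas the main fit held genotype alone, without this pairing.

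The members and lists were chosen with earlier results of these data known. Named beside the members were, in each partner list, genes at an unadjusted p under 0.05 or else its first 2 genes, and the 5 genes most alike in pattern. Motifs were searched in RefSeq windows with Python 3.11.15.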

Additional observations from a re-analysis of the deposited data

How the results depend on the processing

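None of the 10 SR genes and none of the partner genes passed the threshold in any alternative run. In the main fit, without the replicate block, the count of partner genes was 1 when an unadjusted p under 0.05 was used instead. That limit was set after seeing the data. KO NPC 3 was the lowest library for 10 members under TMM, RLE and *Rn7sk* scaling and for 8 on total counts. Scaling by the *Rn7sk* count moved the median of all genes to -0.26 and that of the members to -0.34, and the signs of *Srsf1* (-0.26), *Hnrnpa0* (-0.22), *Snrnp70* (-0.22) and *Upf2* (-0.010) turned with either edgeR test. On total counts *Srsf5* (0.000694), *Upf1* (0.00876) and *Nxf1* (0.042) turned, and the WT means of *Srsf4* and *Srsf3* were 108 and 189 CPM. *Nxf1* also turned with RLE (0.012), DESeq2 (0.012) and a filter of 1 CPM in 3 libraries (0.025), and *Hnrnpa0* with no filter (-0.00648). The cause was not tested.

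The replicate block called no SR gene and no partner gene. With it, under either edgeR test, *Srsf1* was at -0.034 and *Hnrnpa0* at -0.030, the median of the members was -0.13 and 0 genes were called by the quasi-likelihood test and 38 (0.199%) by the likelihood ratio test, against 17 without the block. With *Rn7sk* scaling, the likelihood ratio test and the replicate block, *Srsf1* was at -0.20, *Hnrnpa0* at -0.22 and *Snrnp70* at -0.17.

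With libraries left out, the log2 fold changes ran from -0.15 to 0.46 for *Srsf1*, -0.36 to 0.058 for *Srsf2*, -0.30 to 0.092 for *Srsf3*, -0.26 to 0.15 for *Srsf4*, -0.095 to 0.040 for *Srsf5*, -0.12 to 0.023 for *Srsf6*, -0.19 to 0.13 for *Srsf7*, -0.38 to 0.11 for *Srsf9*, -0.34 to -0.016 for *Srsf10* and -0.13 to 0.000143 for *Srsf11*. They ran from -0.25 to 0.087 for *Srpk1*, -0.0060 to 0.56 for *Srpk2*, -0.13 to 0.23 for *Hnrnpa0*, -0.35 to 0.084 for *Hnrnpa1*, -0.10 to 0.16 for *Snrnp70*, -0.19 to 0.051 for *Snrpa*, -0.13 to 0.18 for *Upf1*, -0.020 to 0.31 for *Upf2*, -0.062 to 0.18 for *Nxf1*, -0.51 to 0.15 for *Nxt1* and -0.16 to 1.18 for *Nova1*, and kept their sign for *Luc7l3* (0.39 to 0.59) and *Ptbp2* (0.23 to 0.50). Without KO NPC 1 the median of the members was -0.22 and without KO NPC 2 it was -0.17. With 3 libraries a group, the intervals of the SR genes leave room for differences of up to -0.92 and 0.91.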

Other observations

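The genes outside the family whose log2 CPM over the 6 libraries was most like the mean of the SR genes were *Cct3*, *Rbmx2*, *2610507B11Rik*, *Pom121* and the pseudogene *Cbx3-ps7*, with Pearson's r of at least 0.999. The 6 points share their libraries and KO NPC 3 carries the profile, so these values are a description and have no p. *Cct3*, a subunit of the TRiC chaperonin, was at 179, 172 and 88.5 CPM in KO and at 159, 162 and 165 CPM in WT NPCs. *Pom121*, which encodes a nuclear pore protein, was at 273, 263 and 122.7 CPM in KO and at 243, 242 and 257 CPM in WT NPCs. *Rbmx2*, which encodes a spliceosomal protein, was at 11.95, 11.94 and 3.32 CPM in KO and at 10.1, 10.2 and 10.7 CPM in WT NPCs.

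Among the partner lists, all KO libraries lay above all WT libraries for *Dyrk1a*, *Son*, *Luc7l3*, *Sfswap*, *Hnrnpr*, *Sarnp* and *Ptbp2*, and below for *Zrsr2*, where 2.74% and 3.28% of all genes did so. These names were chosen after their values were seen. *Son*, a scaffold of nuclear speckles, was at 572, 567 and 554 CPM in KO and at 514, 538 and 499.9 CPM in WT NPCs, with a log2 fold change of 0.13 (SE 0.14). *Dyrk1a*, a kinase that phosphorylates SR proteins, was at 173, 184 and 159 CPM in KO and at 157, 149 and 136 CPM in WT NPCs, with a log2 fold change of 0.22 (SE 0.14). *Hnrnpr* was at 166, 164 and 175 CPM in KO and at 151, 149 and 154 CPM in WT NPCs, with a log2 fold change of 0.15 (SE 0.13). Without KO NPC 3 the log2 fold changes of *Son*, *Dyrk1a* and *Hnrnpr* were 0.14, 0.27 and 0.13. *Zrsr2*, which recognises the 3′ splice site of minor introns, was at 27.1, 24.5 and 10.7 CPM in KO and at 27.4, 28.5 and 27.6 CPM in WT NPCs, with a log2 fold change of -0.42, or -0.11 without KO NPC 3.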
